A study of Mus musculus with 32 samples.

Results

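Control motor neurons were compared with the control glia that surround them in the lumbar anterior horn of the mouse spinal cord, to describe which functions, beyond the usual markers, separate the 2 cell types at the level of RNA. The comparison holds every littermate control extract of the series, chosen by its label: 16 of 32 extracts, of which 8 were motor neurons and 8 were glia. Within each cell type, 4 extracts came from B6SJL controls aged 8 weeks, the nontransgenic littermates of SOD1-G93A mice, and 4 from B6D2F1 controls aged 16 weeks, the nontransgenic littermates of TAU-P301L mice. All mice were female, and none of the controls carried a transgene. Strain, age and colony differ together, so they are treated as a single factor, called colony here. An extract was about 500 cells taken from 1 mouse by laser capture, in which single cells are lifted from a stained section under the microscope. The cells were recognised by shape after cresyl violet staining, without a marker, so the glia label does not separate astrocytes, oligodendrocytes and microglia. The labels do not say whether motor neurons and glia came from the same mice. Replicates are separate animals.

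Spinal motor neurons are large cholinergic cells whose axons leave the cord and drive muscle. They support a long axon with neurofilaments and motor proteins, fire at high rates and spend much ATP on pumping sodium and calcium back. The glia around them insulate axons with myelin (oligodendrocytes), clear transmitter, potassium and water (astrocytes) and remove debris (microglia). In such bulk extracts, fewer cells of a type and less RNA per cell cannot be told apart.

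Each extract had been hybridised on 2 Agilent 44K arrays, once in the red dye (Cy5) and once in the green dye (Cy3), beside the extract of a transgenic littermate, which was not used here. Levels are log2 intensities of the control channel after normalization between arrays, and the 2 arrays of an extract were averaged and counted once. A difference is the level in motor neurons minus that in glia on the log2 scale, so that 1 stands for 2-fold and a negative value means higher in glia. Where an array lacked a value for a gene its extract was left out of that gene's fit, and n gives the motor neuron and glia extracts that remained. An adjusted p is limma's, over all genes tested, with colony as a covariate and a threshold of 0.05, and an error after ± is the standard error (SE). Levels of different probes share no scale, so they are compared only within a gene.

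Before the results, 3 features of these arrays have to be stated. First, 1 of the 32 arrays, the Cy5 array of B6SJL motor neuron replicate 3, had been read with its grid 2 rows out of place. Its control (Cy5) signal correlated with the mean of all other arrays at -0.0272 in place and at 0.689 after a shift of 2 rows. The 31 other arrays correlated in place at 0.568 to 0.976 over both channels. The lowest were red channels of glia arrays, at 0.568 and 0.575 for B6D2F1 replicate 1 and 0.582 for B6SJL replicate 2. The misread extract (B6SJL motor neuron replicate 3) stayed in the fit, so differences include it wherever it has a value. The main counts are given with and without it, and levels in motor neurons are those of the other 7 extracts. It read above all 7 for some genes, such as Ndufs6, Pkm and Calcb, which raises their differences. For others, such as Nefl (9.96) and Atp1b1 (7.96), it read below all 7. Second, glia replicate 4 of B6D2F1 was faint, with 8.98% of probes well above background in Cy5 and 35.2% in Cy3. It was still the highest glia extract for some genes called higher in glia, such as Hadha, Esrrg, Cacna2d2, Klc2, Nes and Psmb2. For these genes B6D2F1 replicate 1 was the lowest glia extract or had no value. Glia replicates 2 of B6SJL and 1 of B6D2F1, with the low red correlations, also stood apart. Their shares well above background in Cy5 were 70.2% and 77.3%, and the 2 arrays of each correlated at 0.793 and 0.857. In addition, motor neuron arrays were scanned in 2 batches (scans 1 and 2) and glia arrays in 4 others (scans 3 to 6), and the file headers give Feature Extraction 8.5.1.1 for motor neurons and 9.5.1.1 for glia. Cell type therefore cannot be told apart from scan and software version. Within motor neurons, with 4 extracts in each scan, scan 2 differed from scan 1 for 57 of 13081 genes (0.436%) in limma at an adjusted p under 0.05. At an unadjusted p under 0.05 there were 2261. The SD of these differences over genes was 0.298, against 0.440 for the difference between cell types. Scan 1 held the misread extract, and this comparison set 4 extracts against 4, not 8 against 8. These values therefore do not measure a scan effect alone.

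Motor neurons differed from glia in the RNA of several groups of genes, though in each group part of the members did not pass. In the main fit, some groups held a larger share of genes higher in motor neurons than all genes did. They included synaptic release, the proteasome, neuropeptides, chaperones, glycolysis, the citric acid cycle, calcium signalling, and neurofilaments and microtubules. Not all of them did once scan was allowed for, as given below. Myelin, transmitter uptake and the handling of water and ions held a larger share of genes higher in glia. Of 13082 genes tested, 4924 (37.6%) passed the threshold: 3273 (25%) were higher in motor neurons and 1651 (12.6%) higher in glia. These shares are the background against which each group of genes below has to be read. Differences over 2-fold were fewer, with 164 genes higher in motor neurons and 298 higher in glia, and over 4-fold there were 3 and 9. In 901 genes (6.89%) the 8 motor neuron extracts and the 8 glia extracts did not overlap.

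The counts moved with the state of the arrays. Without the misread extract, 4149 genes (31.7%) were higher in motor neurons and 1568 (12%) higher in glia, 3215 and 1475 of them shared with the full set, and 1767 genes (13.5%) did not overlap between the 7 and 8 extracts. With scan as a random block, which lets arrays of a scan resemble each other (estimated correlation 0.375), 897 genes (6.86%) were higher in motor neurons and 355 (2.71%) higher in glia. These 2 shares are the background for the scan block counts below. Against 6.86%, chaperones (0 of 33) and neuropeptides (1 of 19) no longer held a larger share. Neurofilaments and microtubules (2 of 27) were close to it. Scaling each array by its 75th percentile in place of normalizing between arrays gave 3618 (27.7%) and 705 (5.4%), so that 83.7% of calls were higher in motor neurons, compared with 66.5% before. That scaling raised the median difference of all genes to 0.213, against 0.096, and it is named below wherever it removes the calls of a group. The same contrast in the 16 transgenic extracts, which are separate animals on the same arrays, called 2242 genes (17.9%) higher in motor neurons and 1281 (10.2%) higher in glia. Of these, 2110 (94.1%) and 1029 (80.3%) were also called in controls, which is 64.5% and 62.3% of the control calls. Both channels of an array share its scan, its software version and its normalization. This overlap, and the transgenic counts given below, therefore cannot separate cell type from scan.

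**Figure D1:**
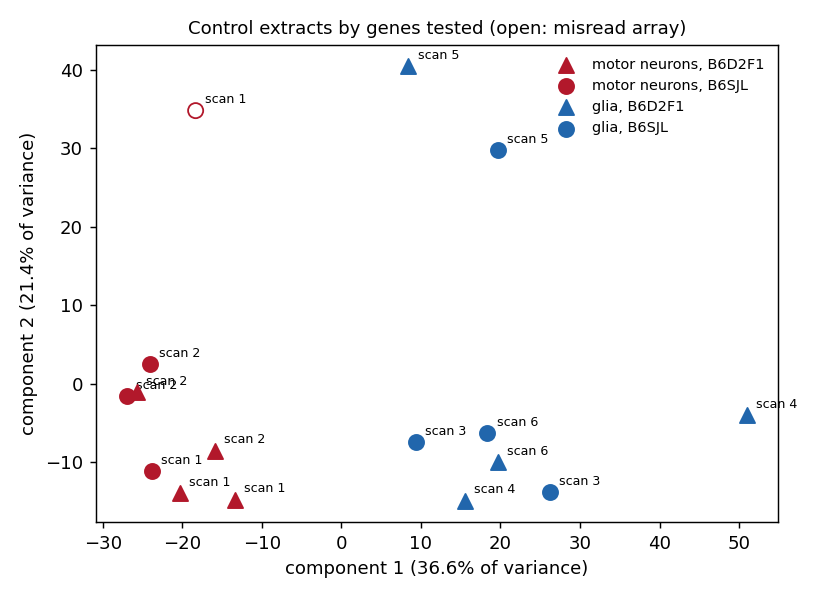
Principal components of the 16 control extracts over the genes tested, with component 1 (36.6% of variance) on the x axis and component 2 (21.4%) on the y axis; red stands for motor neurons, blue for glia, circles for B6SJL and triangles for B6D2F1. The 8 motor neuron extracts lie between -27.0 and -13.4 on component 1 and the 8 glia extracts between 8.44 and 51.0, while component 2 sets apart the misread extract (open circle) and the 2 glia extracts of scan 5.

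The marker genes followed the labels in part. Peptides, neurofilaments and the choline transporter were higher in motor neurons, while the cholinergic enzyme Chat and the transcription factors of motor neuron identity were not called higher there. Of 17 tested genes on the motor neuron list, 8 were higher in motor neurons and 2 higher in glia, and 3 and 0 with scan as a random block. Calca, which encodes the peptide CGRP and is strongly expressed by motor neurons, read 9.17, 9.98 and 11.61 in motor neurons (lowest, median and highest) and 6.72, 7.86 and 8.72 in glia, with no overlap and a difference of 2.25 ± 0.39 (adjusted p = 0.000727). Slc5a7, the choline transporter that feeds acetylcholine synthesis, read 8.22, 9.0 and 9.95 in motor neurons and 6.72, 7.74 and 8.66 in glia, a difference of 1.19 ± 0.31 (adjusted p = 0.00817). For Slc5a7 the lowest motor neuron extract lay within the range of glia.

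Chat, the enzyme that makes acetylcholine, was singled out after its values were seen because it defines the cell type. It read 6.15 to 6.26 in motor neurons and 6.08 to 6.40 in glia (adjusted p = 0.509), and its probe was well above background on 12 of 16 motor neuron arrays and 9 of 16 glia arrays. The lowest mean level of any tested gene was 6.01, so Chat read near the floor, where a difference can be missed. Of 12 genes of skeletal muscle and other tissues, 4 were bright enough to be tested and 0 passed. The vesicular acetylcholine transporter Slc18a3 was on the array and did not reach the level for testing. The 2 marker genes that were higher in glia were Esrrg, a nuclear receptor, at -1.28 ± 0.41 (adjusted p = 0.0235), and Mnx1, a homeobox factor of motor neurons, at -0.36 ± 0.09 (n = 8 and 7) (adjusted p = 0.00558). Esrrg ranged widely among glia extracts, between 6.21 and 10.05. Mnx1 also read near the floor, at 5.99 to 6.49 in motor neurons and 6.36 to 6.76 in glia.

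Some genes of other neurons were also higher in the motor neuron extracts. Of 16 tested interneuron markers, 8 were higher in motor neurons and 0 higher in glia (2 and 0 with scan as a block). Among them were the glycine transporter Slc6a5 at 0.70 ± 0.13 and the opioid precursor Penk at 1.06 ± 0.26 (adjusted p = 0.000972 and 0.00567). Astrocyte markers were higher in glia in 7 of 14 genes and oligodendrocyte markers in 5 of 11, with 0 higher in motor neurons for both; under 75th percentile scaling these calls were 0 and 1, and with the scan block 3 and 3. Microglia markers were higher in glia in 3 of 11 genes (1 with the scan block), led by the phagocytic receptor Trem2 at -0.71 ± 0.11 (adjusted p = 0.000336). The astrocyte marker Gfap and the myelin marker Mog were on the array but were too dim to be tested.

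Markers of each cell type were measured in both captures. All 14 astrocyte markers and all 11 oligodendrocyte markers tested were well above background on at least 12 of 16 motor neuron arrays. The same held for every tested gene of the other marker lists, also the 4 of skeletal muscle and other tissues. This count therefore does not single out glial genes and cannot measure glial material. In glia, 13 of 17 motor neuron markers were above background on at least 12 of 16 arrays. The mean level of the motor neuron list, centred on all extracts, ranged between 0.11 and 0.69 in 7 motor neuron extracts and between -0.74 and 0.03 in 8 glia extracts, without overlap. The astrocyte list ranged between -0.31 and 0.05 in motor neurons and between -0.10 and 0.74 in glia, and the oligodendrocyte list between -0.48 and -0.04 in motor neurons and between -0.11 and 0.54 in glia, with overlap in both. How far material of the other cell type lowers the differences below was not tested.

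**Figure D2:**
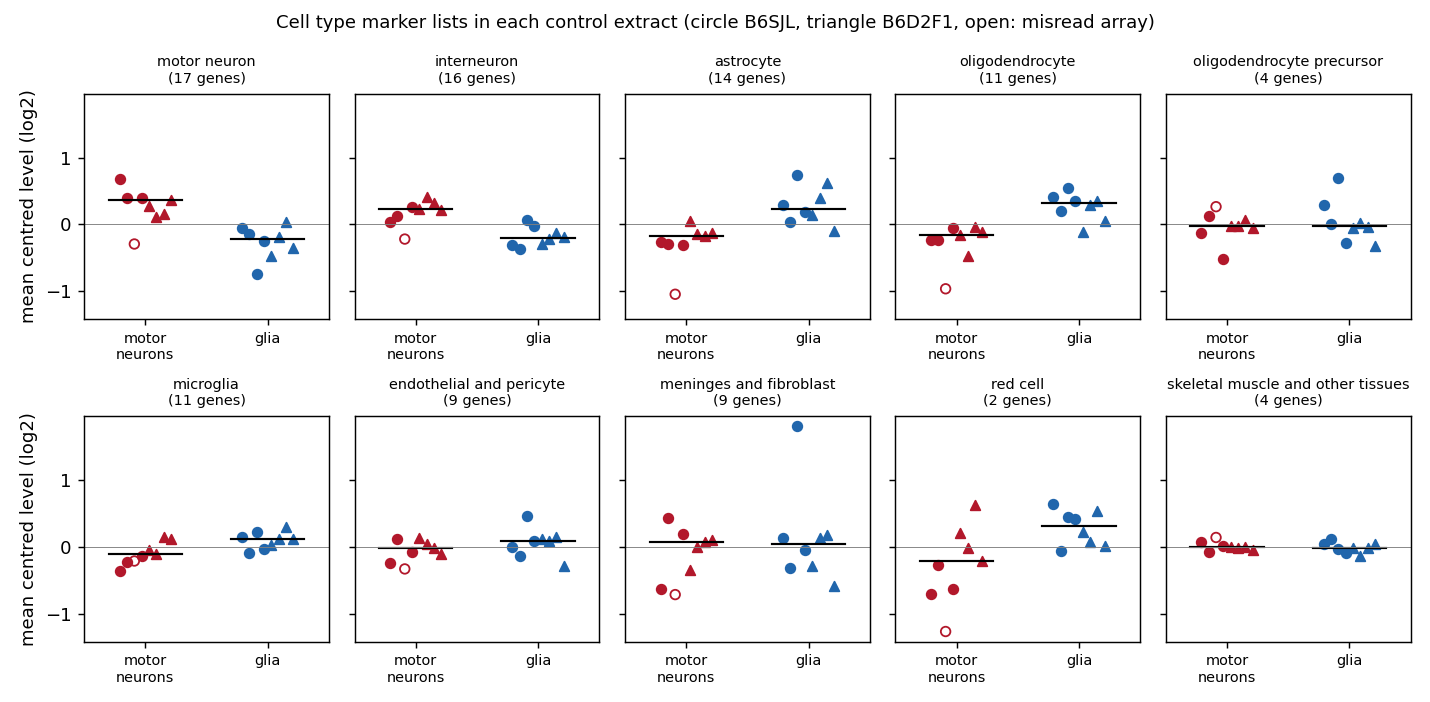
Mean centred log2 level (y axis) of each cell type marker list in every control extract, motor neurons in red on the left and glia in blue on the right; circles are B6SJL, triangles B6D2F1, the open circle is the misread extract and lines are medians. The motor neuron list separates the 7 motor neuron extracts (0.11 to 0.69) from the 8 glia extracts (-0.74 to 0.03), and each of the other lists overlaps.

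The synaptic release machinery had the highest share of genes higher in motor neurons among the 39 function lists. Of 30 tested genes of synaptic vesicle and release, 18 were higher in motor neurons and 0 higher in glia, against 25% and 12.6% of all genes. Their median difference was 0.524, compared with 0.096 over all genes. Snap25, a SNARE protein of the plasma membrane that drives vesicle fusion, read 10.61, 11.05 and 12.31 in motor neurons (lowest, median and highest) and 8.27, 9.08 and 9.82 in glia. Every motor neuron extract lay above every glia extract, and the difference was 2.28 ± 0.26 (n = 7 and 8), or 4.87-fold (adjusted p = 8.80e-05). Vamp1, a vesicle SNARE abundant in spinal cord, was higher by 1.09 ± 0.21 (n = 8 and 7), and the ATPase Nsf, which takes used SNARE bundles apart, by 1.15 ± 0.25. Dnm1, the dynamin that pinches vesicles off for recycling, read 7.81, 8.29 and 8.42 in motor neurons and 6.11, 6.33 and 6.98 in glia, again without overlap (1.51 ± 0.21, adjusted p = 0.000237). Complexin 1 (Cplx1), which clamps the SNARE bundle until calcium enters, was higher by 1.05 ± 0.26 (n = 7 and 8) (adjusted p = 0.007). In the fit with scan as a random block, 8 of the 30 stayed higher in motor neurons, with adjusted p of 0.00248 for Snap25, 0.0154 for Dnm1 and 0.0763 for Nsf. Without the misread extract the count was 22, and in the transgenic extracts 13 of 29 were higher in motor neurons and 0 higher in glia.

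A part of each family of excitability genes was higher in motor neurons. Among voltage-gated channels, 5 of 15 sodium and calcium channel genes and 8 of 21 neuronal potassium channel genes were higher in motor neurons, and 1 of each was higher in glia. With the scan block 2 of 15 and 1 of 21 stayed higher in motor neurons, and 0 in glia. Scn8a, the sodium channel of the axon initial segment and nodes, read 8.86, 9.06 and 9.65 in motor neurons (lowest, median and highest) and 6.81, 7.72 and 8.07 in glia, with no overlap and a difference of 1.42 ± 0.21 (adjusted p = 0.000338). The calcium channel subunits Cacna2d3 and Cacna1g, the second of which forms a low-threshold channel, were higher by 1.11 ± 0.15 and 0.87 ± 0.19 (adjusted p = 0.000217 and 0.00281). Cacna2d2, another accessory subunit, was the exception at -0.90 ± 0.33 (adjusted p = 0.0443). The fast potassium channel Kcnc1, which lets neurons fire at high rates, was higher by 0.87 ± 0.18 (n = 8 and 7) (adjusted p = 0.00278), and Kcnip4, a partner of A-type potassium channels, by 1.01 ± 0.21 (adjusted p = 0.00261). The pacemaker channel Hcn4 was higher in glia at -0.47 ± 0.13 (adjusted p = 0.0131). It read 6.22 to 6.46 in motor neurons and 6.42 to 7.49 in glia. Its highest glia levels, 7.49 and 7.20, were those of B6D2F1 replicate 1 and B6SJL replicate 2, the glia extracts with low red correlations.

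Part of the receptors for inhibitory inputs was higher in motor neurons. Among glutamate receptors, which carry excitatory inputs, the share was no larger than among all genes. Glrb, the glycine receptor subunit that is tied to the synapse, read 7.61, 8.12 and 8.38 in motor neurons (lowest, median and highest) and 6.06, 6.73 and 7.10 in glia, without overlap, a difference of 1.31 ± 0.19 (adjusted p = 0.000268). Its anchor gephyrin (Gphn) was higher by 0.44 ± 0.08 (n = 8 and 7) (adjusted p = 0.00137). In all, 5 of 12 GABA and glycine receptor genes passed, each of them higher in motor neurons, and 3 passed with the scan block. Of 14 ionotropic glutamate receptor genes, 3 (21.4%) were higher in motor neurons and 1 (7.14%) higher in glia, against 25% and 12.6% of all genes. Gria2, the AMPA receptor subunit that keeps the receptor closed to calcium, was higher by 0.56 ± 0.09 (n = 8 and 7) and Grin3a by 0.55 ± 0.08 (n = 8 and 7), while Grin2d stood at -0.40 ± 0.13 (adjusted p = 0.000458, 0.000325 and 0.0215). Grin2d read 6.25 to 6.50 in motor neurons and 6.41 to 7.28 in glia. Its highest glia levels, 7.28 and 7.16, were again those of B6D2F1 replicate 1 and B6SJL replicate 2. Of 7 tested genes of cholinergic transmission, 3 passed: Slc5a7, the nicotinic receptor subunit Chrnb2 at 0.91 ± 0.20 (n = 8 and 7) and acetylcholinesterase (Ache) at 0.55 ± 0.09 (n = 8 and 7) (adjusted p = 0.0033 and 0.000633). The scan block left 2 of the 14 glutamate receptor genes and 2 of the 7 cholinergic genes, all higher in motor neurons.

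Peptides and their storage granules were higher in motor neurons in 9 of 19 genes, with 0 higher in glia and a median difference of 0.391. Beside Calca, the list held its paralog Calcb at 1.61 ± 0.37 and Penk. Secretory granule proteins rose with them: Scg5, which guides a peptide-processing enzyme, at 1.22 ± 0.31 (adjusted p = 0.00675), and chromogranin A (Chga), which packs granules, at 0.84 ± 0.26 (adjusted p = 0.0199). Without the misread extract 14 of the 19 were higher, and with scan as a random block only Calca remained (adjusted p = 0.0382). Calca and Calcb are near copies, so their probes may not be fully separate. For Calcb the misread extract, which the difference includes, read 10.99, against 7.35 to 8.91 in the other motor neuron extracts.

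Part of the axon's cytoskeleton was higher in motor neurons, and a stathmin and a tubulin were higher in glia. Of 27 genes of neurofilaments and microtubules, 11 were higher in motor neurons and 2 higher in glia, 18 and 2 without the misread extract, and 2 and 1 with the scan block. Neurofilament medium chain (Nefm) read 7.61, 8.25 and 9.10 in motor neurons (lowest, median and highest) and 6.16, 6.60 and 7.28 in glia, without overlap (1.60 ± 0.20, adjusted p = 0.000136). Neurofilament light chain (Nefl), whose level varied more between extracts, read 12.41, 13.31 and 13.86 in motor neurons and 9.77, 11.40 and 12.26 in glia (1.54 ± 0.49, adjusted p = 0.023). The dendritic protein Map2 was higher by 0.71 ± 0.15 (adjusted p = 0.0024). Of the stathmins, which bind tubulin, Stmn3 was higher in motor neurons by 1.15 ± 0.27 (adjusted p = 0.00473), whereas Stmn4 was higher in glia at -2.0 ± 0.33 (adjusted p = 0.000618). Stmn4 read 8.70, 9.99 and 10.35 in motor neurons and 11.05, 11.33 and 11.92 in glia with no overlap. The tubulin Tubb2b was also higher in glia at -0.82 ± 0.24 (adjusted p = 0.014). With scan as a block, Nefm and Stmn4 passed (adjusted p = 0.0108 and 0.0115), and Nefl did not (adjusted p = 0.196).

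Of 27 kinesin, dynein and dynactin motors, which carry cargo along the axon, 6 were higher in motor neurons and 1 higher in glia, a share close to the 25% of all genes. Without the misread extract 13 were higher, and with the scan block 3. The dynein intermediate chain Dync1i1, a neuronal form that links the motor to its cargo, was higher by 1.04 ± 0.12 (adjusted p = 7.41e-05) and the kinesin adaptor Kifap3 by 1.29 ± 0.19 (adjusted p = 0.000291). The kinesin light chain Klc2 was higher in glia at -1.0 ± 0.30 (adjusted p = 0.0181). Of 18 genes of axon growth and injury response, 6 were higher in motor neurons and 2 higher in glia. They included Stat3, a factor activated after axon injury, at 1.01 ± 0.26, and Ank3, the scaffold of the axon initial segment, at 0.74 ± 0.17 (n = 7 and 8) (adjusted p = 0.00831 and 0.00445). With the scan block 0 of these 18 were higher in motor neurons and 1 higher in glia in limma, and Stat3 and Ank3 had adjusted p of 0.094 and 0.0573.

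Calcium signalling was higher in motor neurons in 12 of 28 genes of calcium buffering and calmodulin signalling, with 1 higher in glia. The phosphatase calcineurin, through its catalytic subunit Ppp3ca, read 9.08, 9.52 and 9.91 in motor neurons (lowest, median and highest) and 7.47, 7.67 and 8.14 in glia, the difference being 1.48 ± 0.23 without overlap (adjusted p = 0.000396). The kinase subunit Camk2g was higher by 0.90 ± 0.25, the calcium sensor Vsnl1 by 0.97 ± 0.15 and S100a10, a partner of annexins at the membrane, by 1.30 ± 0.28 (adjusted p = 0.0106, 0.000423 and 0.00279). The buffer Calb1, a protein of several interneuron classes, was higher by 0.59 ± 0.12 (adjusted p = 0.00183). The exception was S100b, a calcium-binding protein of astrocytes, at -0.74 ± 0.22 (adjusted p = 0.016). With scan as a random block 4 of the 28 passed, among them Ppp3ca and Vsnl1 (adjusted p = 0.03 and 0.0255).

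**Figure D3:**
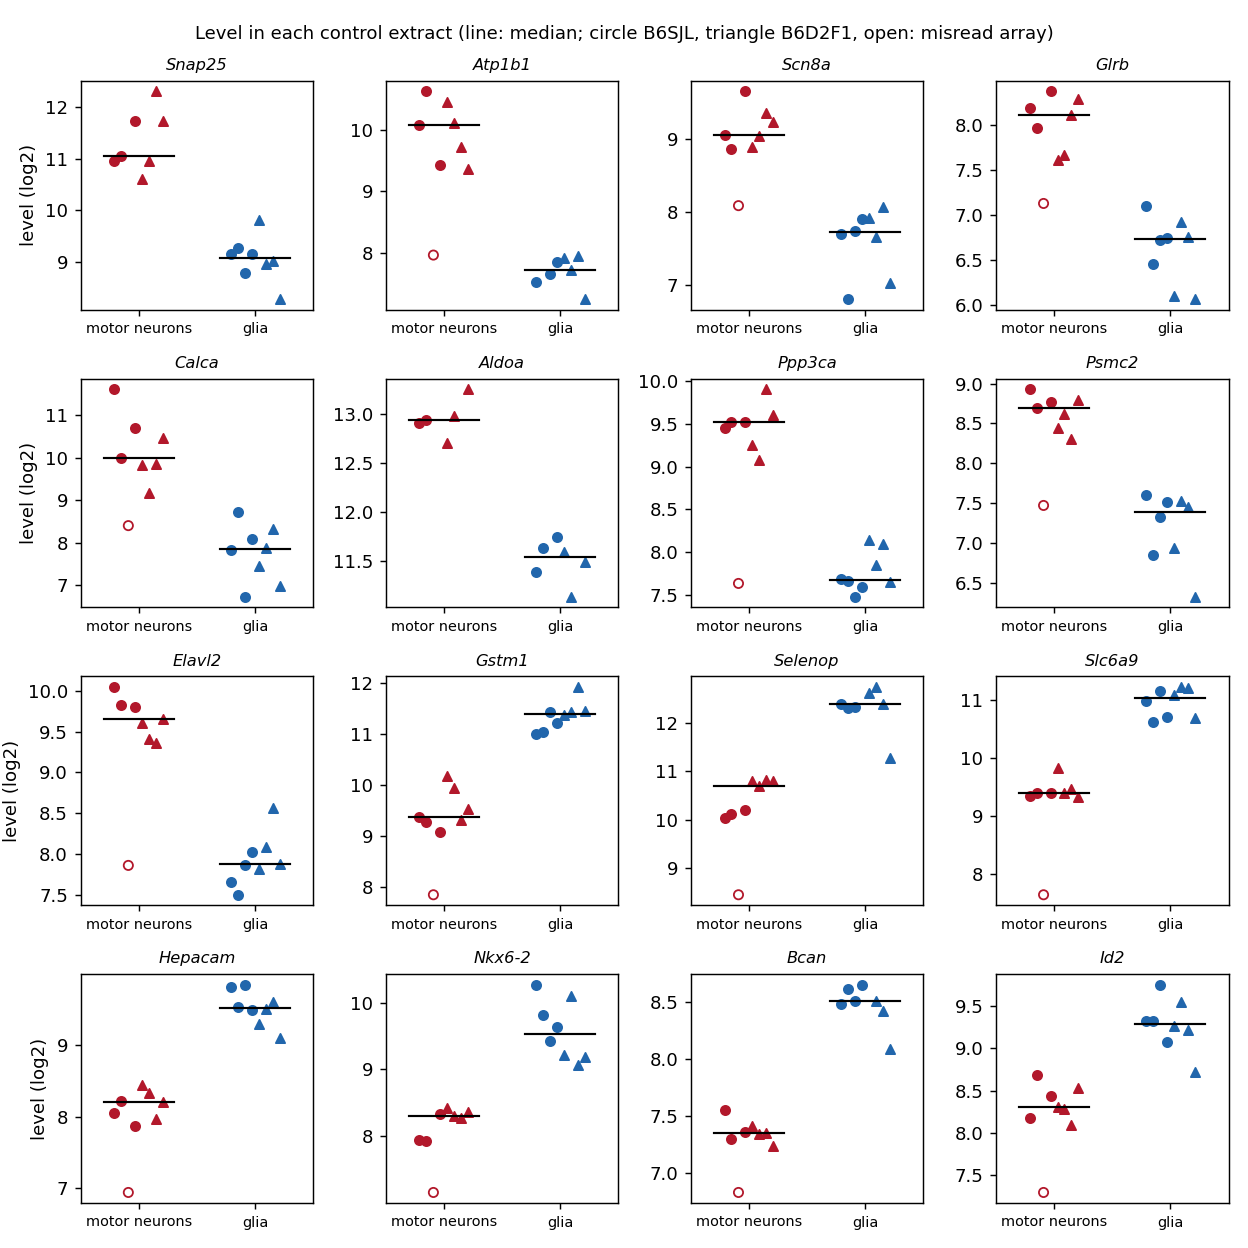
Level of 16 genes in every control extract on the log2 intensity scale (y axis, separate for each gene), motor neurons in red on the left and glia in blue on the right, with circles for B6SJL, triangles for B6D2F1, an open circle for the misread extract and lines for medians. The 9 genes from Snap25 to Elavl2 are higher in motor neurons and the 7 genes from Gstm1 to Id2 are higher in glia, and in all 16 the 7 correctly read motor neuron extracts do not overlap the glia.

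In energy metabolism, part of the genes of glycolysis and of the citric acid cycle was higher in motor neurons. Of 20 glycolysis genes, 8 were higher in motor neurons and 1 higher in glia, with a median difference of 0.354, and 13 and 1 without the misread extract. Aldolase A (Aldoa) read 12.70, 12.94 and 13.25 in motor neurons (lowest, median and highest) and 11.13, 11.54 and 11.74 in glia, without overlap, a difference of 1.47 ± 0.13 (n = 5 and 6) (adjusted p = 0.0001). Pyruvate kinase (Pkm) was higher by 1.68 ± 0.27, neuronal enolase (Eno2) by 1.24 ± 0.25 and phosphoglycerate kinase (Pgk1) by 0.95 ± 0.31 (adjusted p = 0.000497, 0.00185 and 0.0268). For Pkm the misread extract, which the difference includes, read 10.34, against 8.05 to 9.06 in the other motor neuron extracts. Of 22 genes of the tricarboxylic acid cycle and shuttles, 9 were higher in motor neurons and 1 higher in glia. Got1 and the carrier Slc25a12, which bring cytosolic reducing power into mitochondria, were higher by 1.19 ± 0.20 and 1.02 ± 0.17 (adjusted p = 0.000701 and 0.000544). The cycle enzymes Suclg1 and Idh3a were higher by 1.21 ± 0.19 and 1.09 ± 0.19 (adjusted p = 0.000502 and 0.000887). The scan block left 4 of 20 glycolysis genes and 4 of 22 cycle and shuttle genes, with 0 higher in glia.

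The main consumer of this energy, the sodium-potassium pump, differed most in 1 subunit. Atp1b1, the beta subunit that carries the pump to the membrane, read 9.36, 10.08 and 10.62 in motor neurons (lowest, median and highest) and 7.24, 7.71 and 7.94 in glia, a difference of 2.04 ± 0.31 (n = 8 and 7) or 4.1-fold with no overlap (adjusted p = 0.000396). In all, 1 of 7 pump genes was higher in motor neurons and 1 in glia, 4 and 1 without the misread extract, and 1 and 0 with the scan block.

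Respiratory complexes were split. Of 60 tested subunits, 17 were higher in motor neurons and 5 higher in glia, and their median difference of 0.046 lay below that of all genes. The complex I subunits Ndufs6, Ndufc2 and Ndufa6 were higher in motor neurons by 1.54 ± 0.31, 1.38 ± 0.24 and 1.13 ± 0.15 (adjusted p = 0.00185, 0.000891 and 0.0002). For Ndufs6 the misread extract, which the difference includes, read 10.52, against 7.76 to 9.15 in the other motor neuron extracts. Sdhd of complex II and Atp5pb of the ATP synthase followed at 1.07 ± 0.19 and 0.98 ± 0.28 (adjusted p = 0.000972 and 0.0129). The small subunits Cox6a1, Cox7a2 and Uqcr10 of complexes III and IV were higher in glia at -1.12 ± 0.38 (n = 7 and 8), -0.76 ± 0.23 and -1.07 ± 0.25 (adjusted p = 0.0332, 0.0184 and 0.00438). All 5 glia calls were lost under 75th percentile scaling, where 26 of 60 were higher in motor neurons and 0 higher in glia, and with the scan block, where 8 and 0 were. In the burning of fat and ketones the count was 7 and 4 of 23, and 1 and 0 with the scan block. The trifunctional enzyme was divided: its beta subunit Hadhb was higher in motor neurons by 0.76 ± 0.22, and its alpha subunit Hadha was higher in glia at -1.95 ± 0.52 (adjusted p = 0.0133 and 0.00958), with probes of differing sign for Hadha. Acadvl, a dehydrogenase of long-chain fatty acids, was higher in glia at -0.46 ± 0.13 (adjusted p = 0.0107), a direction that 75th percentile scaling turned to 0.32.

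Protein breakdown and folding were among the functions most often higher in motor neurons. Of 29 proteasome genes, 15 were higher in motor neurons and 1 higher in glia, with a median difference of 0.395. Without the misread extract 21 were higher, and with scan as a random block 10, the highest count of any function list under that setting. The regulatory particle led: its ATPases Psmc6 and Psmc2 were higher by 1.32 ± 0.26 and 1.31 ± 0.22, and Psmd14, which strips ubiquitin from substrates, by 1.12 ± 0.19 (adjusted p = 0.00151, 0.000597 and 0.000676). Psmc2 read 8.31, 8.69 and 8.93 in motor neurons (lowest, median and highest) and 6.33, 7.38 and 7.60 in glia, with no overlap. In the transgenic extracts 14 of the 29 proteasome genes stood higher in motor neurons, against 1 in glia. Psmb2, a subunit of the core particle, was the exception at -0.88 ± 0.21 (n = 8 and 7) (adjusted p = 0.00496).

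Enzymes that attach or remove ubiquitin were higher in motor neurons in 12 of 31 genes and in glia in 1. The ubiquitin gene Ubb was higher by 0.89 ± 0.19 (n = 5 and 8) (adjusted p = 0.00368), and the conjugating enzymes Ube2v1 and Ube2k by 0.81 ± 0.18 (n = 8 and 7) and 0.71 ± 0.15 (adjusted p = 0.00404 and 0.00255). The scan block left 3 of the 31, and Ube2v1 and Ube2k lost the call (adjusted p = 0.0766 and 0.0695). Cytosolic chaperones were higher in 14 of 33 genes and in glia in 0. Hspa8, the constitutive Hsp70, read 10.61, 11.47 and 11.92 in motor neurons (lowest, median and highest) and 9.76, 10.16 and 10.54 in glia, without overlap (0.93 ± 0.33 (n = 7 and 8), adjusted p = 0.041), and Bag3, a cochaperone that sends clients to autophagy, was higher by 1.07 ± 0.24 (n = 8 and 7) (adjusted p = 0.00418). None of the 33 chaperones passed with scan as a random block in limma, where Hspa8 had an adjusted p of 0.254 and Bag3 of 0.0606.

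The making of proteins was not uniform. Translation factors were higher in motor neurons in 11 of 36 genes and in glia in 1, with Eif5 at 0.82 ± 0.16 (n = 8 and 7) and Eif3a at 0.59 ± 0.10 (adjusted p = 0.00148 and 0.000544). Genes of the endoplasmic reticulum and secretory path were higher in 10 of 38 and in glia in 3, close to the shares of all genes. With the scan block the counts were 6 and 0 of 36 translation factors and 4 and 1 of these 38. Among the 38, the signal peptidase subunit Spcs1 was higher by 1.31 ± 0.25, the chaperone BiP (Hspa5) by 0.94 ± 0.17 and Rpn2, which helps attach sugar chains, by 1.03 ± 0.24 (adjusted p = 0.00139, 0.00116 and 0.00441). Of 73 cytosolic ribosomal proteins, 10 were higher in motor neurons and 12 higher in glia, and their median difference was -0.26, or -0.355 relative to all genes. Rpl37a at -1.33 ± 0.33 (n = 7 and 8) was higher in glia, and Rps6 at 0.65 ± 0.14 was higher in motor neurons (adjusted p = 0.00646 and 0.00344). Under 75th percentile scaling the ribosomal median turned to 0.424 with 13 and 0 calls, and the scan block left 3 and 2, so no direction is given for the ribosome as a whole. Many ribosomal genes have near-identical processed copies, and their probes can share signal.

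Splicing and RNA-binding proteins were near the background, with 12 of 42 higher in motor neurons and 3 in glia, and 4 and 0 with the scan block. Elavl2 and Elavl4, neuronal proteins that stabilise messages, were higher by 1.52 ± 0.25 and 1.46 ± 0.25 (adjusted p = 0.000514 and 0.000651). Elavl2 read 9.36, 9.66 and 10.05 in motor neurons (lowest, median and highest) and 7.50, 7.88 and 8.57 in glia, with no overlap, and passed with scan as a block (adjusted p = 0.027). The splicing factor Rbfox1 was higher by 0.69 ± 0.19 (n = 8 and 6) (adjusted p = 0.0135). Qk, the splicing regulator of oligodendrocytes, was higher in glia at -1.60 ± 0.37 (n = 8 and 7) (adjusted p = 0.00441), with probes of differing sign.

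**Figure D4:**
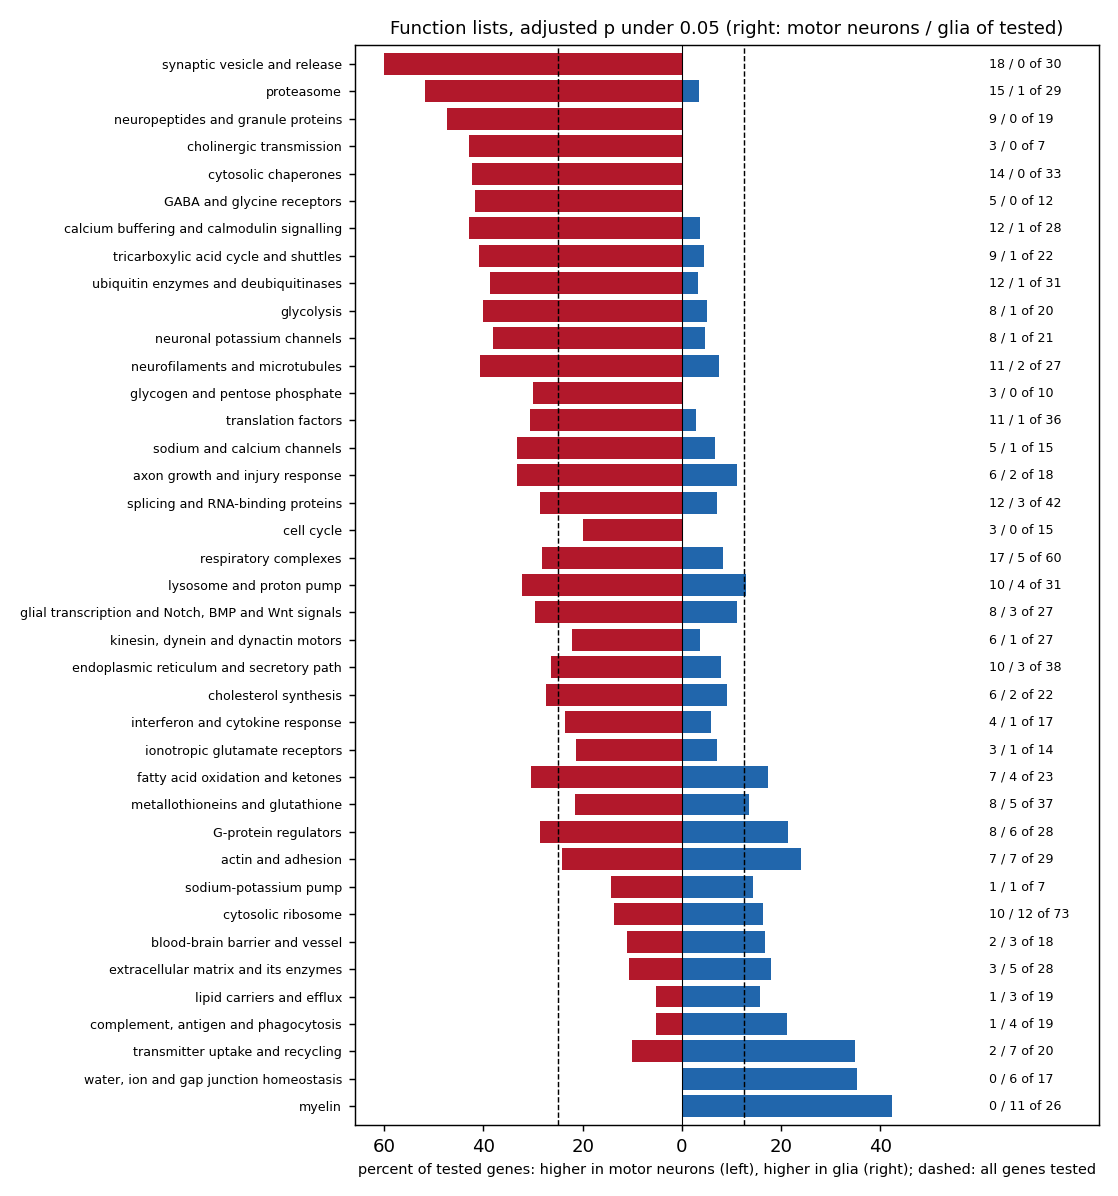
Share of tested genes with adjusted p under 0.05 in each of 39 function lists (x axis, percent), higher in motor neurons in red to the left and higher in glia in blue to the right; the dashed lines are the shares over all genes tested, 25% and 12.6%, and the counts stand at the right edge. Synaptic vesicle and release (18 and 0 of 30) and the proteasome (15 and 1 of 29) head the lists for motor neurons, and myelin (0 and 11 of 26) closes them for glia.

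Myelin was the function most often higher in glia. Of 26 tested myelin genes, 11 were higher in glia and 0 in motor neurons, with a median difference of -0.383, or -0.478 relative to all genes. Under the scan block 5 passed, and under 75th percentile scaling 1 did, where the median relative to all genes was -0.127. In the transgenic extracts 8 of 27 myelin genes were higher in glia and 0 in motor neurons. Nkx6-2, a transcription factor of myelinating oligodendrocytes, read 7.93, 8.31 and 8.42 in motor neurons (lowest, median and highest) and 9.07, 9.53 and 10.27 in glia, without overlap (-1.50 ± 0.21, adjusted p = 0.000235). Tspan2, a membrane protein of myelin sheaths, was higher in glia at -1.39 ± 0.26, and gelsolin (Gsn), an actin-severing protein of oligodendrocytes, at -1.82 ± 0.51 (n = 7 and 6) (adjusted p = 0.00118 and 0.0147). Mag, an adhesion protein next to the axon, stood at -1.70 ± 0.29 and Mobp and Mbp, structural proteins of compact myelin, at -1.01 ± 0.21 (n = 7 and 8) and -0.87 ± 0.18 (n = 6 and 8) (adjusted p = 0.000684, 0.00276 and 0.0033). Each of the last 3 has another probe with the opposite sign, and Mbp turned to 0.25 under 75th percentile scaling.

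Uptake and recycling of transmitter were higher in glia in 7 of 20 genes and in motor neurons in 2, with a median of -0.378. Slc6a9, the glial glycine transporter GlyT1, read 9.33, 9.40 and 9.83 in motor neurons (lowest, median and highest) and 10.62, 11.03 and 11.22 in glia, without overlap (-1.73 ± 0.22, adjusted p = 0.000152). Glutamine synthetase (Glul), which turns the glutamate taken up by astrocytes into glutamine, was higher in glia at -1.57 ± 0.35 (adjusted p = 0.00352). The serine pathway followed, with the synthetic enzyme Phgdh at -0.70 ± 0.19 and the transporter Slc7a10 at -0.71 ± 0.17 (adjusted p = 0.01 and 0.00453). On the neuronal side of the same cycle, the glutamine importer Slc38a1 was higher in motor neurons by 1.11 ± 0.24 (n = 8 and 7) (adjusted p = 0.00323). With scan as a block 4 genes stayed higher in glia, with Slc6a9 and Glul at adjusted p of 0.0115 and 0.0396; under 75th percentile scaling 0 did.

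Handling of water and ions through the astrocyte network was higher in glia in 6 of 17 genes and in motor neurons in 0. Hepacam and its partner Mlc1, which sit at astrocyte contacts and are needed for the balance of ions and water, were higher at -1.52 ± 0.18 and -1.37 ± 0.21 (adjusted p = 0.0001 and 0.000404). Hepacam read 7.87, 8.21 and 8.45 in motor neurons (lowest, median and highest) and 9.10, 9.52 and 9.85 in glia, with no overlap. The gap junction protein connexin 30 (Gjb6) stood at -1.21 ± 0.20, the membrane protein Ttyh1 at -1.02 ± 0.19 (n = 7 and 8) and the potassium channel Kcnj10 at -0.87 ± 0.30 (adjusted p = 0.000618, 0.00126 and 0.0345). Under the scan block 4 of these genes passed and Kcnj10 did not (adjusted p = 0.186). Under 75th percentile scaling none of the 17 passed in either direction in limma.

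Genes of defence against oxidants and metals passed in both directions. Of 37 genes of metallothioneins and glutathione, 8 (21.6%) were higher in motor neurons and 5 (13.5%) higher in glia. These shares were near those of all genes, 25% and 12.6%, so the list as a whole did not stand out. Those higher in motor neurons included thioredoxin (Txn1) at 1.16 ± 0.33, its reductase (Txnrd1) at 0.80 ± 0.14, glutathione reductase (Gsr) at 0.63 ± 0.12 (n = 8 and 7) and Gclc, the enzyme that limits glutathione synthesis, at 0.65 ± 0.11 (adjusted p = 0.0135, 0.0008, 0.00153 and 0.000843). Gpx1, a peroxidase that spends glutathione, was also higher in motor neurons by 0.61 ± 0.19 (adjusted p = 0.0228). The 5 genes higher in glia were Gstm1, Gstk1, Selenop, Mt1 and Mt2. Glutathione S-transferase Gstm1 read 9.07, 9.37 and 10.18 in motor neurons (lowest, median and highest) and 11, 11.40 and 11.93 in glia, without overlap, at -2.05 ± 0.20 or 4.13-fold higher in glia (adjusted p = 5.15e-05). Selenop, the carrier of selenium, read 10.03, 10.70 and 10.82 in motor neurons and 11.28, 12.39 and 12.75 in glia, at -2.02 ± 0.30 (n = 8 and 7) (adjusted p = 0.000338). The metallothioneins Mt1 and Mt2 stood at -1.37 ± 0.23 and -1.13 ± 0.28 (n = 7 and 8) and Gstk1 at -1.04 ± 0.16 (adjusted p = 0.000647, 0.0065 and 0.000419), and Mt1 has a second probe of the opposite sign. Under 75th percentile scaling 10 genes were higher in motor neurons and 0 higher in glia, and with scan as a block 3 and 4.

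The matrix around the cells was higher in glia in 5 of 28 genes and in motor neurons in 3. With the scan block 0 were higher in motor neurons and 2 higher in glia. The lectican Bcan, a proteoglycan of the perineuronal net, read 7.24, 7.35 and 7.54 in motor neurons (lowest, median and highest) and 8.09, 8.51 and 8.65 in glia, without overlap (-1.16 ± 0.11 (n = 8 and 7), adjusted p = 4.51e-05), and its relative Ncan stood at -0.87 ± 0.27 (adjusted p = 0.0216). Sparc, a matrix protein of astrocytes, stood at -2.27 ± 0.30 (n = 8 and 7) (adjusted p = 0.0002), with a second probe of the opposite sign. Adamts1, a protease that cuts such proteoglycans, was higher in motor neurons by 0.72 ± 0.24 (adjusted p = 0.0271). Its level was 8.71 in the misread extract, which the difference includes, against 6.74 to 7.20 in the other motor neuron extracts. Of 19 genes of complement, antigen and phagocytosis, 4 were higher in glia and 1 in motor neurons, including the tetraspanins Cd81 at -1.28 ± 0.38 and Cd9 at -0.96 ± 0.21 (adjusted p = 0.0167 and 0.00338), and the scan block left 1 and 1.

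Genes of lipid supply passed in both directions. Of 19 genes of lipid carriers and efflux, 3 were higher in glia and 1 in motor neurons. Apoe, the apolipoprotein with which astrocytes export cholesterol, was higher in glia at -1.12 ± 0.21 (adjusted p = 0.00123). Cholesterol synthesis was higher in motor neurons in 6 of 22 genes and in glia in 2, near the background, with Nsdhl at 0.77 ± 0.10 and Sqle at 0.73 ± 0.17 (n = 8 and 7) (adjusted p = 0.000207 and 0.00538), both enzymes of sterol synthesis. The scan block left 1 of the 19 carrier genes, in glia, and 2 of the 22 synthesis genes, in motor neurons. Lysosome and proton pump genes were higher in motor neurons in 10 of 31 and in glia in 4, and in 1 and 0 with the scan block. Their median difference was 0.173, against -0.076 within B6SJL and -0.017 in the transgenic extracts, so no direction is given for the list. Atp6ap2, which belongs to the proton pump, was higher by 1.11 ± 0.18, whereas the protease inhibitor cystatin C (Cst3) was at -0.81 ± 0.27 (n = 7 and 8) (adjusted p = 0.000524 and 0.0288), which turned to 0.05 under 75th percentile scaling.

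Regulators also differed. Inhibitors of differentiation Id2 and Id3, which respond to BMP signals, were higher in glia at -1.05 ± 0.18 and -1.11 ± 0.27 (adjusted p = 0.000684 and 0.00541), and so was the oligodendrocyte factor Sox10 at -0.95 ± 0.25 (n = 8 and 7) (adjusted p = 0.00893). They were the 3 of 27 genes of glial transcription and Notch, BMP and Wnt signals that passed towards glia. The other 8 that passed were higher in motor neurons, and Hes5, a Notch target of glial progenitors, was among them at 0.38 ± 0.10 (n = 8 and 7) (adjusted p = 0.00769) with levels of 6.42 to 6.79 in motor neurons and 6.01 to 6.60 in glia. The scan block left 1 towards glia and 2 towards motor neurons. G-protein regulators passed often in both directions, 8 and 6 of 28, and 6 and 4 with scan as a block. The gamma subunit Gng3 was higher in motor neurons by 1.11 ± 0.25 and Rgs2, which shortens G-protein signals, by 0.65 ± 0.09, while the gamma subunits Gng11 and Gng5 were higher in glia at -1.65 ± 0.20 and -0.98 ± 0.15 (adjusted p = 0.00349, 0.000258, 0.000106 and 0.000373). Actin and adhesion genes passed 7 and 7 of 29 (2 and 1 with the scan block), with profilin 2 (Pfn2) at 0.73 ± 0.27 and talin (Tln1) and nestin (Nes) at -1.22 ± 0.30 and -1.29 ± 0.31 (adjusted p = 0.0472, 0.00616 and 0.00557). Of the remaining lists, cell cycle gave 3 and 0 of 15, interferon and cytokine response 4 and 1 of 17, blood-brain barrier and vessel 2 and 3 of 18, and glycogen and pentose phosphate 3 and 0 of 10, and 0 of these passed with the scan block in limma.

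Several activities are served by 1 gene in neurons and another in glia, and 18 such pairs were set side by side, of which 12 had both genes tested. In 8 of the 12 the gene known for neurons had the higher difference. The 2 genes passed in opposite directions in 2 pairs. Aldolase A was at 1.47 ± 0.13 (n = 5 and 6) and aldolase C (Aldoc), the astrocyte form, at -0.88 ± 0.25 (adjusted p = 0.0001 and 0.0127), though Aldoc turned to 0.02 under 75th percentile scaling. The reticulon Rtn1 was at 1.61 ± 0.26 (n = 7 and 8) and Rtn4, which blocks axon growth, at -0.54 ± 0.20 (adjusted p = 0.00064 and 0.0435), and the mean over the probes of Rtn4 was 0.05. Another Rtn4 probe passed towards motor neurons at 0.35 (adjusted p = 0.0413), and without the misread extract Rtn4 had an adjusted p of 0.0586. The highest glia levels of Rtn4, 7.75 and 7.62, were those of B6SJL replicate 2 and B6D2F1 replicate 1, the glia extracts with low red correlations. With scan as a random block neither Aldoc nor Rtn4 passed (adjusted p = 0.143 and 0.141), so no pair kept opposite calls.

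In other pairs a single member passed. The pump subunit Atp1b1 passed, while Atp1b2, its glial counterpart, was at 0.33 ± 0.17 (n = 8 and 7) (adjusted p = 0.136). The neuronal glucose transporter Slc2a3 passed at 0.33 ± 0.06 (adjusted p = 0.00155), while Slc2a1 was at -0.78 ± 0.31 (adjusted p = 0.0569). Mt1 passed towards glia, and the neuronal metallothionein Mt3 was at 0.16 ± 0.14 (adjusted p = 0.385). Thymosin beta 10 (Tmsb10), entered as the neuronal member, was higher in glia, at -0.73 ± 0.20 (adjusted p = 0.00974). Of the phosphofructokinases, the non-neuronal member Pfkl was higher in motor neurons by 0.38 ± 0.10 (n = 8 and 7) (adjusted p = 0.0109), and Pfkp, entered as the neuronal member, was at 0.39 ± 0.16 (n = 8 and 7) (adjusted p = 0.0622). The difference between the members of a pair was not tested.

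**Figure D5:**
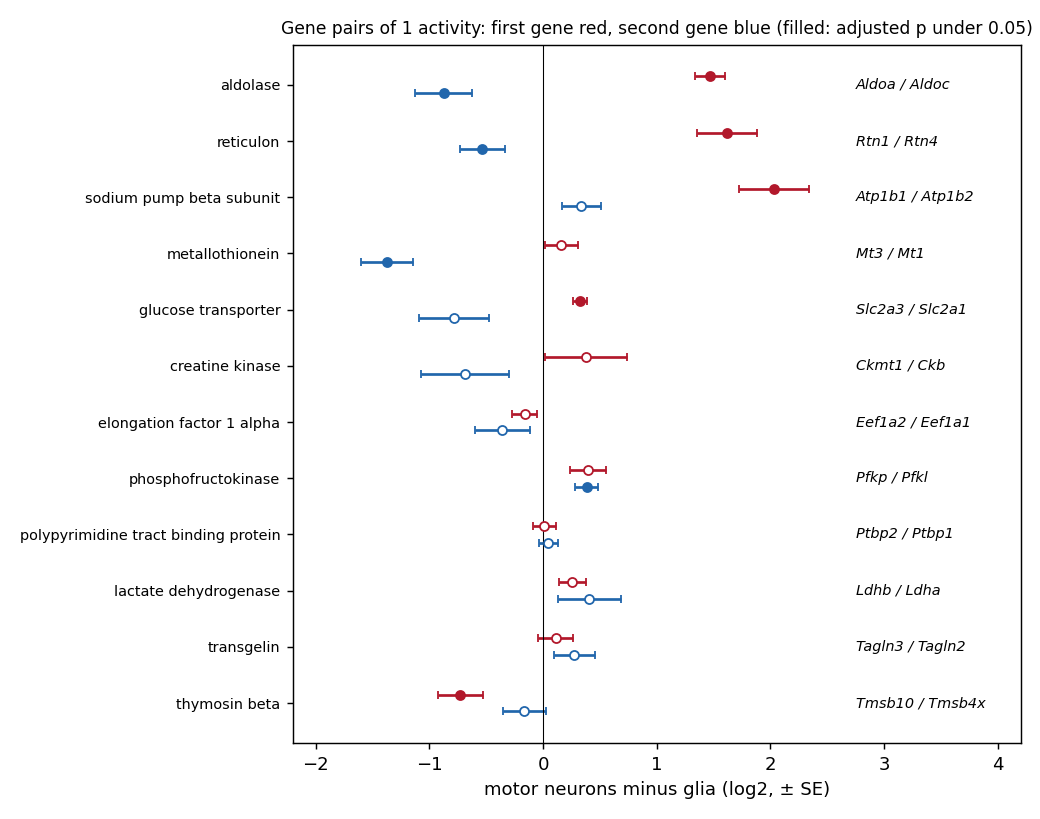
Difference between motor neurons and glia (x axis, log2, ± SE, 16 extracts) for the 12 gene pairs with both members tested; the first gene of a pair is red and drawn above the second, which is blue, and filled points passed the threshold. Aldoa and Rtn1 lie to the right (higher in motor neurons) while Aldoc and Rtn4 lie to the left (higher in glia). Neither Aldoc nor Rtn4 passed with scan as a random block.

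Some of the largest differences belonged to genes outside these functions. The osteopontin gene Spp1, a secreted phosphoprotein found in motor neurons, read 11.11, 11.36 and 12.48 in motor neurons (lowest, median and highest) and 8.82, 10.21 and 10.84 in glia, a difference of 1.61 ± 0.35 (n = 5 and 8) (adjusted p = 0.00393). Lrp11, a receptor-like membrane protein, was higher in motor neurons by 1.44 ± 0.26, the dynamin Dnm3 by 1.46 ± 0.20, the deubiquitinase Usp33 by 1.40 ± 0.20, the ubiquitin ligase adaptor Asb13 by 1.41 ± 0.22 and Nkiras1, a small GTPase-like inhibitor of NF-kappaB signalling, by 1.52 ± 0.19 (adjusted p = 0.001, 0.000223, 0.000273, 0.000378 and 0.000126).

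On the glia side the largest difference that met the rule was that of Olfr1143, an olfactory receptor gene by its array annotation, at -2.15 ± 0.22 (n = 8 and 7) (adjusted p = 6.19e-05). Its level was 7.25, 7.56 and 8.17 in motor neurons (lowest, median and highest) and 8.94, 9.57 and 10.84 in glia. Gpm6b, a membrane proteolipid of glia, was at -1.59 ± 0.27 (n = 7 and 8), Gpd1, which makes glycerol phosphate for lipids, at -1.44 ± 0.19 and Gstm3, another glutathione S-transferase, at -1.51 ± 0.16 (adjusted p = 0.000701, 0.0002 and 6.19e-05). The adhesion receptor Pvr, the peptide receptor Vipr1, the hexosamine enzyme Gfpt2 and Ccdc159 were at -1.56 ± 0.23 (n = 8 and 7), -1.49 ± 0.16 (n = 8 and 7), -1.39 ± 0.24 (n = 8 and 6) and -1.39 ± 0.16 (n = 8 and 7) (adjusted p = 0.000383, 7.82e-05, 0.000972 and 0.000117). The faint B6D2F1 replicate 4 was the highest glia extract for Olfr1143 (10.84), Pvr (9.83), Vipr1 (9.27), Gfpt2 (9.59) and Ccdc159 (9.71). For each of them B6D2F1 replicate 1 was the lowest glia extract or had no value, and the reason was not tested. Gstm1 and Gstm3 are close relatives whose probes may share signal.

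The promoters of 4 genes are shown because 2 of the metallothioneins were among the genes higher in glia and 2 of the proteasome subunits among those higher in motor neurons. They are the 250 bases before each start site in RefSeq's table for GRCm38.p6, on the plus strand: Mt1 at chr8:94178839-94179088, Mt2 at chr8:94172368-94172617, Psmc6 at chr14:45329574-45329823 and Psmd14 at chr2:61711444-61711693. Capitals mark the core of the metal response element (TGCNCNC) in Mt1 and Mt2 and the GC box (GGGCGG) in Psmc6 and Psmd14, on either strand.
Mt1: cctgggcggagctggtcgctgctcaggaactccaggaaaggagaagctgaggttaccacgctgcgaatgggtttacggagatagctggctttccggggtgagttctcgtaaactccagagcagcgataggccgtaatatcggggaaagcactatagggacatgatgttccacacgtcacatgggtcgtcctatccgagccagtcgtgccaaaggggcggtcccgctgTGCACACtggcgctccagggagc
Mt2: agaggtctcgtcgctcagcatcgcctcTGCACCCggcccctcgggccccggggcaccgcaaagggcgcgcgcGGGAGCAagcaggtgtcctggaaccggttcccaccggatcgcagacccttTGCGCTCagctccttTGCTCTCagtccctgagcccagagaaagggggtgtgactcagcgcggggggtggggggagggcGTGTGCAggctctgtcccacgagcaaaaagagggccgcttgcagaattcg
Psmc6: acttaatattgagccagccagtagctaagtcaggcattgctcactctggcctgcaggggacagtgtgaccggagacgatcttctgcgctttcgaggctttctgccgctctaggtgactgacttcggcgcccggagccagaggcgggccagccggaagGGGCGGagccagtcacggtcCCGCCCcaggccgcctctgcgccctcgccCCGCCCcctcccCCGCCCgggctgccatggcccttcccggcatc
Psmd14: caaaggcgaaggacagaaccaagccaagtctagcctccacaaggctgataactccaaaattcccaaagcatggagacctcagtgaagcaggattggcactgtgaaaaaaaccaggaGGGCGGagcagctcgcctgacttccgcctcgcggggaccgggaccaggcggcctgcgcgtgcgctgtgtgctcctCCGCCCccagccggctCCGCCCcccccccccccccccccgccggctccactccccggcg
Mt1 held 1 metal response core and Mt2 held 5, while Psmc6 held 4 GC boxes and Psmd14 held 3. The letters of the metal response core are common: they were in 52.6% of the 2344 promoters of genes higher in motor neurons, in 51.3% of the 1055 of genes higher in glia, in 50% of the 5514 of genes that did not pass and in 43.8% of all 27025 promoters. The GC box was in 57.4%, 49.8%, 52.8% and 32.9% of the same sets. The TATA box (TATAAA) ran the other way, at 6.91%, 9.29%, 9.83% and 13%. A SOX site (ACAATG) was in 5.63%, 7.77%, 7.73% and 11%. GC boxes are common in promoters of housekeeping genes and TATA boxes in promoters of regulated ones. The median GC content of the sets was 60%, 57.6%, 58.4% and 52%. A match of letters is not a site of binding.

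How far a difference can be trusted varied with the probe. Of 695 genes called higher in motor neurons that had 2 or more tested probes, all probes agreed in sign in 535 (77%), while of 306 such genes called higher in glia they did in 105 (34.3%). Among 1449 genes that did not pass it was 776 (53.6%). In 144 genes, probes passed in opposite directions, with the widest gaps in Ptcd3, Vps35, Exosc1, Sgip1, Camsap2 and Med1. For Vps35, a subunit of the retromer that sorts cargo from endosomes, 1 probe stood at 0.70 and the other at -1.77 (adjusted p = 0.000479 and 0.00260). Brightness also divided the calls: among the 3271 dimmest genes 27.6% were higher in motor neurons and 4.22% higher in glia, and among the 3271 brightest 19.8% and 19.1%.

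Presence or absence separated very few genes. Only 6 tested genes were not well above background on any glia array: Csk, Frzb, Higd1a, Klhl28, Nipbl and Sult1d1. For such a gene only a bound can be given, the mean of motor neurons over the lowest signal that counts as above background. Higd1a, a mitochondrial protein of the response to low oxygen, was at least 1.35-fold higher in motor neurons (adjusted p = 0.000271), and the other 5 at least 1.13-fold to 1.16-fold. No tested gene was dim on every motor neuron array.

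The difference between motor neurons and glia was not shown to depend on the colony. The interaction of cell type and colony passed in 0 of 13082 genes (0%) in limma, with a lowest adjusted p of 0.999, and 343 genes had an unadjusted p under 0.05. Within B6SJL controls alone 266 genes (2.03%) were higher in motor neurons and 387 (2.96%) higher in glia, and within B6D2F1 controls 1524 (11.6%) and 388 (2.97%). The B6SJL set holds the misread extract. Snap25 differed by 2.15 in B6SJL and by 2.40 in B6D2F1, and Atp1b1 by 1.84 and 2.20.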

How the data were processed

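RNA of laser-captured control motor neurons and glia had been amplified and hybridised on 2-colour Agilent 44K mouse arrays. Per the file headers the authors' deposited values are linear spot intensity from Agilent Feature Extraction, version 8.5.1.1 for motor neurons and 9.5.1.1 for glia (the submitters' processing notes give 8.5.1.1 for all). Mean signal was corrected against local background (normexp, offset 50) and normalized by loess within and Aquantile between arrays in limma 3.58.1 under R 4.3.3, with statmod 1.5.0 for the random block. Outlier spots were left out and saturated spots kept. Of 43790 spots, 41534 were not controls and held 41174 probes, with names from the RefSeq gene table by accession (23779), symbol (6487) or synonym (2837), while 8071 kept the name in the file. The probe with the highest mean level stood for its gene (27788 genes or unnamed probes). Testing required that, in 4 or more of the 8 extracts of a cell type, both arrays marked the probe well above background, which left 13082. The number of arrays limits the precision.

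The limma fit held 16 extract means with colony as a covariate, and a second fit held the interaction of cell type and colony. Benjamini-Hochberg adjustment ran over all genes tested. The fit was also tested on simulated data with independent noise of each gene's own spread. There 67, 67 and 66 of 13082 genes were set to differ between motor neurons and glia by 0.5, 1 and 2. It recovered 58.2%, 91% and 97% of them. The simulation held no scan effect and far fewer differing genes than were called in the data, so these shares may not hold for the data. The text names the 15 largest differences in each direction among genes that passed without overlap and with all probes of 1 sign, up to 5 members of a list in each direction, and the members of 18 gene pairs; not all are described, and results of some genes are not reported here. Chat was named after its values were seen. Members and lists (10 of markers, 39 of functions) were chosen with earlier results of these data known. Alternatives changed the scaling, the background correction, the filter, the probe rule, the dye, the colony, the blocks and the extracts used. Transgenic channels entered only as an alternative. The deposited matrix of ratios was not used here.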

Additional observations from a re-analysis of the deposited data

Results flagged for a closer look

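A value was marked when the highest or lowest extract of a group lay far from the others by Dixon's test at 95%, for genes over 7 motor neuron (without the misread one) and 8 glia extracts. Of 370 groups tested, 27 were marked, and chance marks about 1 in 20. The faint B6D2F1 glia replicate 4 was the lowest glia extract for Ndufc2 (6.22), Selenop (11.28), Tkt (6.27), Idh3a (6.04), Psmc6 (6.16), Rbfox1 (6.29), Slc7a10 (6.77), Bcan (8.09), Cd9 (7.94) and Gng5 (7.76). Esrrg was lowest in B6D2F1 glia replicate 1 (6.21). B6SJL glia replicate 3 was the highest for Calb1 (6.67), Rpl13a (6.60), Rpl37a (13.25), Rpl7a (13.71), Ctsh (9.02) and Ebp (9.76). Among motor neurons, B6D2F1 replicate 1 was highest for Slc6a9 (9.83) and Gpm6b (10.06), and B6D2F1 replicate 2 for Pvr (7.52) and Vipr1 (7.56). B6D2F1 replicate 3 was highest for Chga (10.73), Cox6a1 (13.36) and Id3 (7.67), B6SJL replicate 2 for Pdgfrb (7.09) and B6SJL replicate 4 for Stat3 (9.04). The misread B6SJL motor neuron replicate 3 had a median correlation of 0.723 with the other motor neuron extracts, the lowest of the 8.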

How the results depend on the processing

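Counts are given as genes higher in motor neurons and genes higher in glia, 3273 and 1651 in the fit reported above. They were 612 and 846 when every extract of a cell type had to be above background, 4063 and 3322 with no filter, 3618 and 705 under 75th percentile scaling and 897 and 355 with scan as a random block. They were 1399 and 946 in Cy5 only, 3829 and 3037 in Cy3 only, 266 and 387 in B6SJL, and 1524 and 388 in B6D2F1. Scan batches were left out after the data were seen, which gave 2785 and 776 without scan 1 and 1265 and 704 without scan 2. The share of calls higher in motor neurons was 66.5% in that fit, 83.7% under 75th percentile scaling, 78.2% without scan 1, 56.1% without scan 5, 79.7% in B6D2F1 and 40.7% in B6SJL. It was 42% under the strict filter, 55% with no filter and 55.8% in Cy3 only. Leaving out 1 extract at a time gave 2663 to 4149 and 1336 to 1938, and 0 to 1 genes for the colony interaction, the 1 without B6SJL motor neuron replicate 2. The other scaling, background, probe rule and covariate settings, the transgenic extracts and scans 3, 4, 5 and 6 stayed within 1.5 times of these counts. The cause was not tested.

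Of 184 genes named or listed for naming, 175 passed, 159 of them kept the call whichever extract was left out and 93 kept it with scan as a random block. The sign turned in 15. Under 75th percentile scaling the difference was 0.25 for Mbp, 0.12 for Hba-a1, 0.021 for Aldoc, 0.12 for Cox7a2, 0.32 for Acadvl, 0.049 for Cst3, 0.17 for Ebp, 0.002 for Slc2a1 and 0.44 for Ckb. It was -0.002 for Vamp2 in the scanner's processed signals, -0.004 for Mt3 with array weights, -0.031 for Atp1b2 in B6SJL, -0.055 for Ckmt1 without scan 2, 0.053 for Rtn4 as the mean of its probes and 0.075 for Chat in Cy5.

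Motor neuron and glia extracts share replicate numbers, but the labels do not tie them to 1 mouse. Deviations of same-numbered extracts correlated at -0.09 to 0.51, not above 0.1 for every number, so they were not taken as pairs. With the replicate block the counts were 2737 and 1664.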
